A study of Rattus norvegicus with 6 samples.

Results

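ATF4 (activating transcription factor 4) is the transcription factor that cells use when amino acids run short or when unfolded proteins accumulate in the endoplasmic reticulum (ER). Stress kinases phosphorylate the translation initiation factor eIF2, bulk protein synthesis falls, and the Atf4 messenger RNA is translated more. ATF4 then switches on amino acid transporters, aminoacyl-tRNA synthetases and enzymes of amino acid synthesis, together with factors that limit the response or lead to cell death when the stress persists. The 10 genes described here were chosen by name, with earlier results of these data known. They hold the factors Atf4, Atf3, Atf5 and Ddit3, the feedback and stress genes Trib3 and Chac1, and the asparagine synthetase gene Asns. They also hold Phgdh, Psat1 and Psph, which encode the enzymes that make serine from a glycolytic intermediate. Each of the 10 had 1 entry among the 32883 genes of the deposited table. All 10 passed the filter on low counts, as did 14670 genes in all.

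The cells were oligodendrocyte precursor cells (OPCs), which divide and mature into the myelin-forming oligodendrocytes, taken from cortices of Sprague Dawley rats at postnatal day 0, shaken off mixed glial cultures and kept in Neurobasal medium with B27 and N2. They received 5 µM ZJU-37, an inhibitor of the kinase RIPK1, or an equal volume of its solvent DMSO, with 3 libraries per group. The labels give 36 h of treatment, whereas the Methods text of the study gives a shorter time. The labels name 2 cortices as the starting tissue, and nothing in them ties a library to an animal or a separate culture, while the study calls the libraries biological repeats in its Methods and plate wells in a figure legend. The p-values thus measure the spread between these libraries, which may be technical.

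The libraries held between 13935865 and 24097927 counts, and 3 counts corresponded to at most 0.215 CPM (each library's counts scaled to the same total), with no more than counting error included in that limit. All CPM values are on the scale of TMM normalization. Of the 7 OPC markers, 4 were higher (Pdgfra, Cspg4, Olig1 and Ptprz1) and 2 lower (Sox10 and Gpr17) with ZJU-37 at an adjusted p-value under 0.05 in edgeR's quasi-likelihood test, and none of the listed markers of OPCs, oligodendrocytes, astrocytes, microglia and neurons was at 0 in all libraries. The summed level of 7 mature oligodendrocyte markers ran from 11086 to 22048 CPM with DMSO and from 4665 to 9759 CPM with ZJU-37, with 2 of the 7 lower (5 with the replicate number as a block in the fit, and 5 at an unadjusted p-value under 0.05). For 8 astrocyte markers it ran from 1007 to 1627 CPM and from 884 to 1331 CPM, for 10 microglia markers from 2116 to 3636 CPM and from 1521 to 3116 CPM, and for 6 neuron markers from 705 to 900 CPM and from 618 to 825 CPM, with DMSO and ZJU-37 respectively. No microglia or neuron marker was called in edgeR (0 and 1 at an unadjusted p-value under 0.05), whereas with the block 4 of the 10 microglia markers and 2 of the 6 neuron markers were lower. In such bulk samples, fewer cells of a type and less RNA per cell cannot be told apart, and the part that cell composition has in the results that follow was not tested.

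With ZJU-37, 3 of the 10 genes were higher at an adjusted p-value under 0.05: Phgdh, Atf5 and Asns. None was lower, also at an unadjusted p-value under 0.05. Over all tested genes 15.0% were called at this threshold, 9.43% as higher and 5.58% as lower. No label pairs the libraries across the groups. Same-numbered libraries deviated from their group means together, and on that ground they are treated as pairs here. When the fit took the replicate number as a block, Psat1 and Psph were called higher as well. That made 5 of the 10, against 32.1% of all tested genes (16.2% higher and 15.9% lower). Atf4, Atf3, Ddit3, Trib3 and Chac1 were not called in either fit. Without DMSO replicate 1, 2 or 3, Phgdh was the 1 gene called. The median log2 fold change of the 10 genes was 0.19, beside -0.03 for all tested genes. In Phgdh, Atf5, Asns, Psat1 and Psph the ZJU-37 libraries lay above every DMSO library, whereas in the other 5 genes the groups overlapped. Over all tested genes 35.2% had groups that did not overlap.

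**Figure D1:**
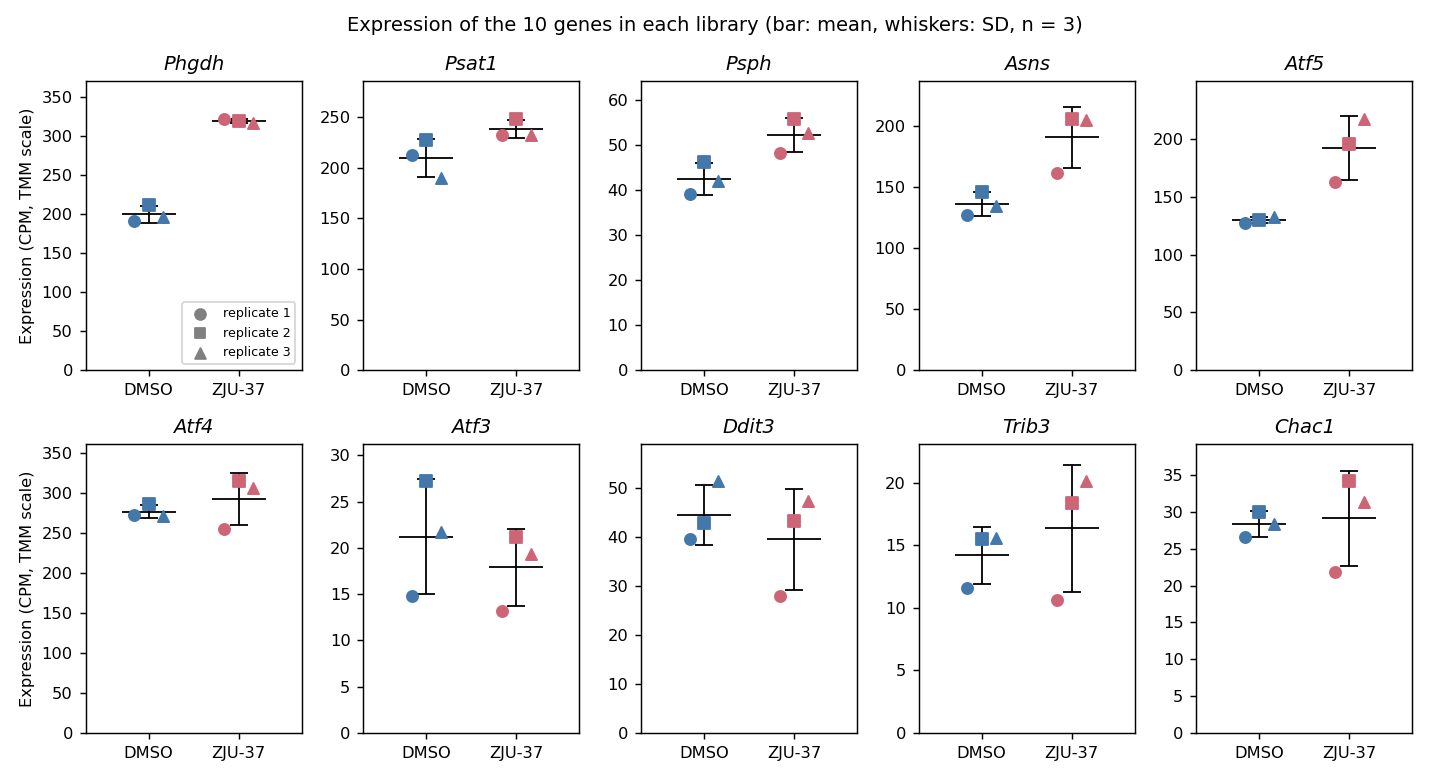
Expression (CPM on the TMM scale, from 0) of the 10 genes in each of the 3 DMSO (blue) and 3 ZJU-37 (red) libraries, with the mean and SD (n = 3) in black and the replicate number as the symbol. The groups separate in the upper row, from Phgdh to Atf5, and overlap in the lower row, from Atf4 to Chac1, where ZJU-37 replicate 1 is the lowest ZJU-37 library in every panel.

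Phgdh encodes phosphoglycerate dehydrogenase, which commits 3-phosphoglycerate to serine synthesis. It lies on the minus strand of chromosome 2, bases 200484246 to 200513564 (the table does not name its genome build). In the order of the replicate numbers, which is kept throughout, its level was 191, 211 and 196 CPM with DMSO against 322, 318 and 316 CPM with ZJU-37. The lowest ZJU-37 library was thus far above the highest DMSO library, and the 3 ZJU-37 libraries lay within a few CPM of one another. The mean went from 199 ± 10.5 CPM with DMSO to 319 ± 2.96 CPM with ZJU-37 (SD, n = 3 libraries each). The log2 fold change was 0.68 (standard error 0.06, adjusted p = 8.20e-04 in edgeR), a fold of 1.60 with a 95% interval from 1.44 to 1.77. The call held in each alternative that was run, with log2 fold changes from 0.65 to 0.72. Phgdh is also abundant in astrocytes. Of the 8 astrocyte markers, Sox9 was higher (log2 fold change 0.53, adjusted p = 0.0285 in edgeR), Aldoc was lower (-0.86, adjusted p = 0.00235), and the other 6 were not called (with the replicate block 1 was higher and 4 were lower).

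The 2 enzymes that follow Phgdh in the pathway had smaller fold changes. Psat1, the aminotransferase of the second step, lies on the minus strand of chromosome 1, bases 233124092 to 233145941. It had 213, 227 and 190 CPM with DMSO and 233, 249 and 233 CPM with ZJU-37 in replicates 1, 2 and 3. The groups did not overlap, but the highest DMSO library and the lowest ZJU-37 library were close. The log2 fold change of Psat1 was 0.18 (standard error 0.08, adjusted p = 0.200 in edgeR), and with the replicate block it was 0.18 with an adjusted p of 0.0285. When 1 library was left out, without the block, it ran from 0.11 to 0.24 (adjusted p from 0.163 to 0.441 in edgeR). Psph, the phosphatase that releases serine, lies on the plus strand of chromosome 12, bases 30514112 to 30526557. It had 39.2, 46.4 and 42.0 CPM with DMSO and 48.3, 55.9 and 52.7 CPM with ZJU-37. Its log2 fold change was 0.30 (standard error 0.09, adjusted p = 0.0738 in edgeR, and 0.00390 with the block). The log2 difference within the pairs of replicates 1, 2 and 3 was 0.30, 0.27 and 0.33 for Psph, 0.13, 0.13 and 0.29 for Psat1 and 0.75, 0.59 and 0.69 for Phgdh. All 3 genes were higher in all 3 pairs, and the share of all tested genes that go 1 way in all pairs was not determined.

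Asns converts aspartate to asparagine and is a textbook target of ATF4 in amino acid shortage. It lies on the minus strand of chromosome 4, bases 33743364 to 33761163. Its level was 127, 147 and 135 CPM with DMSO and 162, 206 and 205 CPM with ZJU-37. Replicate 1 was the lowest library of both groups. Asns averaged 136 ± 9.67 CPM with DMSO and 191 ± 25.1 CPM with ZJU-37 (SD, n = 3 libraries each). Asns thus differed by 0.49 on the log2 scale (standard error 0.11, adjusted p = 0.0278 in edgeR, and 2.26e-04 with the block). When 1 library was left out, the log2 fold change of Asns stayed between 0.44 and 0.61, but the adjusted p-value passed 0.05 in 5 of the 6 fits and reached 0.0918 without DMSO replicate 3.

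Atf5 is a relative of ATF4 that is itself translated more when eIF2 is phosphorylated. It lies on the minus strand of chromosome 1, bases 100808241 to 100810522. Its level was 127, 130 and 132 CPM with DMSO and 163, 195 and 217 CPM with ZJU-37. The DMSO libraries were nearly level with one another, and the spread was wider with ZJU-37 (130 ± 2.67 CPM against 192 ± 27.6 CPM, SD, n = 3 libraries each). Atf5 was higher by 0.56 on the log2 scale (standard error 0.11, adjusted p = 0.0145 in edgeR, and 3.76e-04 with the block). Without DMSO replicate 1, 2 or 3 the adjusted p-value of Atf5 was 0.0541, 0.0596 and 0.0518, with log2 fold changes of 0.55, 0.57 and 0.58 in the same edgeR test.

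Atf4 itself lies on the plus strand of chromosome 7, bases 121480723 to 121482772. Its messenger RNA was at 273, 286 and 271 CPM with DMSO and at 255, 315 and 307 CPM with ZJU-37. ZJU-37 replicate 1 was the lowest of the 6 libraries and ZJU-37 replicate 2 the highest, so that the groups overlapped. The mean was 277 ± 8.06 CPM with DMSO and 292 ± 32.5 CPM with ZJU-37 (SD, n = 3 libraries each). The log2 fold change was 0.08 with a 95% interval from -0.14 to 0.30 (adjusted p = 0.640 in edgeR). A change of Atf4 messenger RNA of more than 1.23-fold upward or to less than 0.907 of its level with DMSO lies outside this interval. The amount of ATF4 protein, which depends on translation, was not measured in these libraries.

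Ddit3, Trib3, Chac1 and Atf3 all had intervals that spanned 0. Ddit3 encodes CHOP, a factor tied to cell death under ER stress, and lies on the plus strand of chromosome 7, bases 70580198 to 70585084. It had 39.4, 42.7 and 51.2 CPM with DMSO and 27.8, 43.2 and 47.2 CPM with ZJU-37. One ZJU-37 library was below the DMSO range and the others were inside it. The log2 fold change of Ddit3 was -0.17 with an interval from -0.67 to 0.33 (adjusted p = 0.650 in edgeR), and without ZJU-37 replicate 1 it was 0.040. The span of Ddit3 shares 72 bases with that of Mars on the opposite strand, and the counting is not stated to use strand, so that reads from these bases cannot be told apart.

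Trib3, a pseudokinase that holds back ATF4 and the kinase AKT, lies on the minus strand of chromosome 3, bases 147813473 to 147819571. It had 11.5, 15.5 and 15.6 CPM with DMSO and 10.6, 18.3 and 20.1 CPM with ZJU-37. Within the pairs it was lower in replicate 1 (log2 difference -0.12) and higher in replicates 2 and 3 (0.24 and 0.37). For Trib3 the log2 fold change was 0.20 with an interval from -0.41 to 0.81 (adjusted p = 0.664 in edgeR). Chac1, which degrades glutathione, lies on the plus strand of chromosome 3, bases 111160205 to 111163425 and had 26.6, 30.1 and 28.4 CPM with DMSO and 21.9, 34.1 and 31.4 CPM with ZJU-37. Its log2 fold change was 0.04 with an interval from -0.35 to 0.44 (adjusted p = 0.899 in edgeR), and the sign turned when DMSO replicate 1 or ZJU-37 replicate 2 was left out (-0.0012 and -0.059).

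ATF4 binds with C/EBP partners to composite elements whose core reads TGATGNAA. RefSeq promoters of the GRCr8 assembly, 300 bases each from 250 before the gene start, were matched by symbol for 9 of the 10 genes (all but Atf3) and searched on both strands. The core was found in 2 of the 9, Chac1 and Trib3, beside 3.98% of all 33469 promoters. The stretches are shown because they place the element relative to the gene start in members that were not called. Capitals mark the core, which reads on the opposite strand in both, from base -167 to -160 before the start of Chac1 and from -21 to -14 before that of Trib3.
Chac1, the 250 bases before the start, chr3:126795881-126796130, plus strand: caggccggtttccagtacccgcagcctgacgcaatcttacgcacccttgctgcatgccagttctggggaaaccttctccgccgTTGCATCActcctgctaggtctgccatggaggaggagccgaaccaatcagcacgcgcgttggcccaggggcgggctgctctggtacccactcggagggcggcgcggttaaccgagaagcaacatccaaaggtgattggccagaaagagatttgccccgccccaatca
Trib3, 30 bases around the core, chr3:161275536-161275565, minus strand: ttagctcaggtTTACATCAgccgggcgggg

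Atf3, a stress-induced factor that mostly represses its targets, lies on the minus strand of chromosome 13, bases 109817728 to 109849632. It had 14.8, 27.2 and 21.7 CPM with DMSO and 13.2, 21.1 and 19.4 CPM with ZJU-37. The groups overlapped, and Atf3 was lower in each of the 3 pairs, by log2 differences of -0.17, -0.36 and -0.16. How common such agreement is over all tested genes was not determined. The log2 fold change was -0.25 with an interval from -0.88 to 0.38 (adjusted p = 0.603 in edgeR). With the replicate block the interval narrowed to between -0.44 and -0.03, with an adjusted p of 0.0797, which did not pass the threshold.

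**Figure D2:**
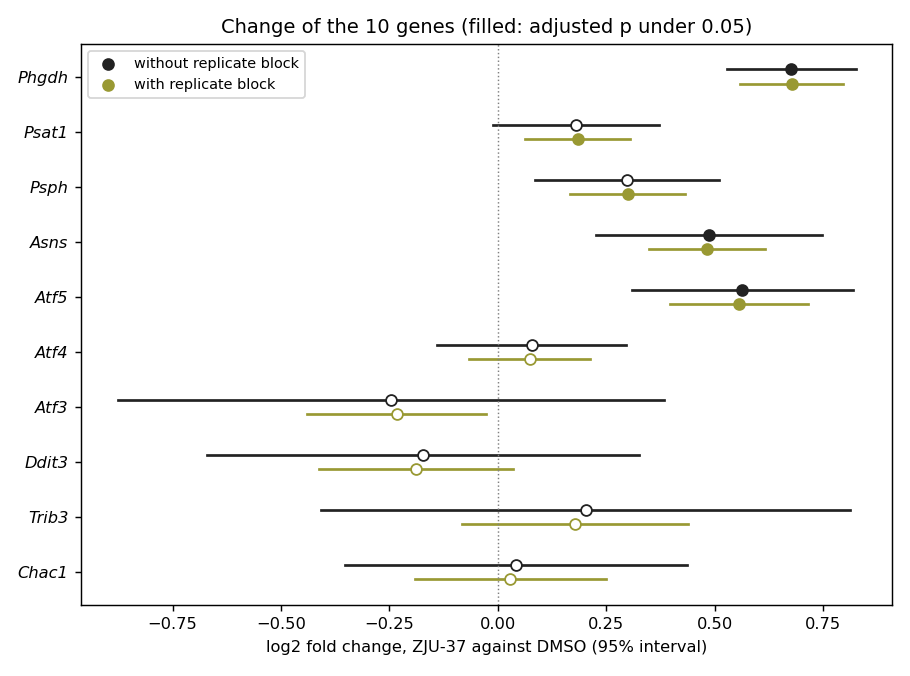
Log2 fold change of the 10 genes, ZJU-37 against DMSO, with 95% intervals from edgeR without (black) and with (olive) the replicate number as a block. Filled points had an adjusted p-value under 0.05, which held for Phgdh, Asns and Atf5 in both fits and for Psat1 and Psph with the block only.

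ZJU-37 replicate 1 was the lowest ZJU-37 library in 9 of the 10 genes, Phgdh being the exception, beside 39.4% of all tested genes. DMSO replicate 1 was the lowest DMSO library in 8 of the 10, beside 31.8% of all tested genes. In log2 CPM, ZJU-37 replicate 1 lay below its group mean by 0.57 for Trib3, 0.46 for Ddit3, 0.41 for Atf3 and 0.39 for Chac1. For Atf4, Atf5 and Asns it lay below by between 0.19 and 0.23. For Phgdh the same library lay 0.01 above its group mean, and for Psat1 0.03 below. DMSO replicate 1 had deviations of -0.47 for Atf3 and -0.28 for Trib3. Replicate 1 was below its group mean in both groups for Atf3, Trib3, Ddit3 and Chac1, and also for Atf4, Atf5, Asns and Psph. For Phgdh and Psat1 it was not. In Ddit3 and Chac1 the sign of the fold change depended on which libraries entered.

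**Figure D3:**
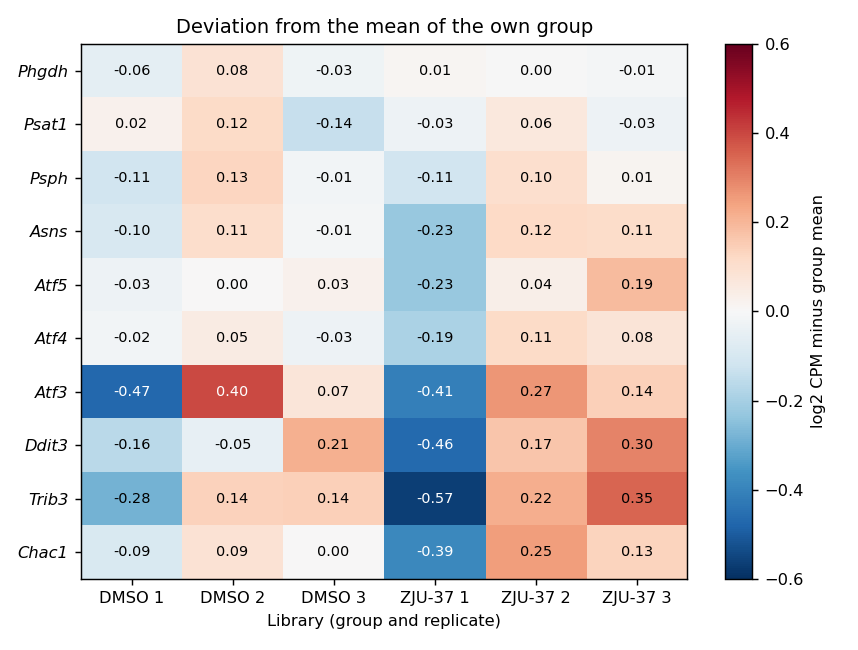
Deviation of each library from the mean of its own group in log2 CPM (colour and printed value) for the 10 genes in rows and the 6 libraries in columns. ZJU-37 replicate 1 is low for Trib3, Ddit3, Atf3 and Chac1 (-0.57 to -0.39) and near its group mean for Phgdh and Psat1.

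Since Atf4 varied between libraries, the level of each other gene was also set against Atf4 in the same library, a ratio that does not depend on the normalization. This ratio was chosen after the values had been seen. The ratio of Asns to Atf4 was 0.466, 0.512 and 0.497 with DMSO and 0.636, 0.655 and 0.667 with ZJU-37 in replicates 1, 2 and 3. ZJU-37 replicate 1, which was low in Asns and in Atf4, was thus close to the other ZJU-37 libraries in their ratio, with means of 0.492 ± 0.0235 and 0.653 ± 0.0158 (SD, n = 3 libraries each). For Atf5 the ratio ran from 0.454 to 0.487 with DMSO and from 0.620 to 0.707 with ZJU-37. For Phgdh it ran from 0.700 to 0.738 and from 1.01 to 1.26, the highest being ZJU-37 replicate 1. For Psph it ran from 0.144 to 0.162 and from 0.172 to 0.189. In these 4 genes the groups did not overlap in the ratio, and the two-sided exact permutation test gave p = 0.1, which is the lowest value possible with 3 libraries per group (0.225 adjusted over the 9 ratios). The folds were 1.33 for Asns, 1.40 for Atf5, 1.52 for Phgdh and 1.17 for Psph. Over all other tested genes, 28.0% had groups that did not overlap in the ratio to Atf4. The ratios of Psat1, Atf3, Ddit3, Trib3 and Chac1 overlapped between the groups, with exact permutation p-values from 0.3 to 0.8. This test does not use the pairing of the replicates, which was itself inferred from these data. The share of all tested genes whose ratio goes the same way in 3 of 3 pairs was not determined. Within the pairs, the ratio of Atf3 was lower with ZJU-37 in 3 of 3 (0.0542 against 0.0517, 0.0949 against 0.0672 and 0.0798 against 0.0631), as was that of Ddit3 (0.144 against 0.109, 0.149 against 0.137 and 0.189 against 0.154).

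**Figure D4:**
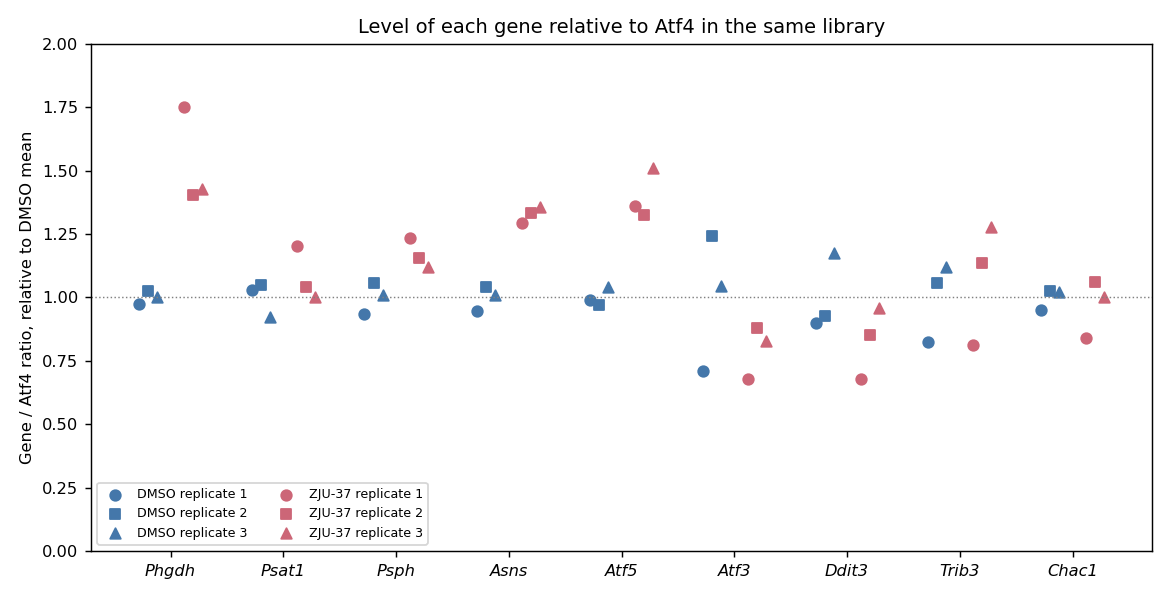
Ratio of each gene to Atf4 in the same library, divided by the mean ratio of the DMSO libraries (linear axis from 0, DMSO in blue, ZJU-37 in red, symbols by replicate). The groups do not overlap for Phgdh, Psph, Asns and Atf5, and overlap for Psat1, Atf3, Ddit3, Trib3 and Chac1.

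Between genes, levels were compared in FPKM, which the authors made from the counts with the gene length. With DMSO, Atf4 stood highest (142 ± 4.84 FPKM, SD, n = 3 libraries), followed by Atf5 (125 ± 2.87), Phgdh (110 ± 6.37), Psat1 (74.0 ± 6.84), Asns (60.9 ± 4.64), Ddit3 (47.8 ± 6.54), Psph (29.6 ± 2.67), Chac1 (18.0 ± 1.19), Trib3 (7.30 ± 1.20) and Atf3 (7.27 ± 2.15). Trib3 and Atf3 did not differ beyond their spread, whereas Atf4, Atf5 and Phgdh were each above the next by more than their SDs. With ZJU-37 the first places went to Atf5 (185 ± 24.8 FPKM) and Phgdh (176 ± 3.52), above Atf4 (150 ± 15.1), although the SD ranges of Atf5 overlapped with those of both Phgdh and Atf4. Atf4 lay above 96.4% of tested genes in FPKM with DMSO and Atf3 and Trib3 above 38.7% and 38.8%.

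The wider program was read from lists of genes around the 10. All 11 amino acid transporters had a log2 fold change above 0, beside 6753 of the 14670 tested genes. Of the 11, 6 were called higher and none lower, beside 9.43% and 5.58% of all tested genes. With the replicate block 10 were higher, beside 16.2% of all tested genes. When 1 library was left out, between 4 and 7 were called. Slc7a3, a transporter of cationic amino acids, rose, with 53.2 ± 3.01 CPM in the solvent and 104 ± 8.25 CPM under the inhibitor (SD, n = 3 libraries each, log2 fold change 0.96, adjusted p = 5.97e-04 in edgeR). Slc7a5, the carrier of leucine and other large neutral amino acids, had 422, 429 and 402 CPM with DMSO and 695, 734 and 718 CPM with ZJU-37. No ZJU-37 library came near the DMSO range (log2 fold change 0.78, adjusted p = 5.68e-04). Slc38a1, which carries glutamine, Slc1a4, which carries serine and alanine, and Slc6a9, which carries glycine, had log2 fold changes of 0.66, 0.49 and 0.35. The median of the list was 0.49.

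Among 18 serine, glycine and folate-cycle enzymes, 6 were called higher and none lower, with a median log2 fold change of 0.09. With the block 8 were higher and 1 lower. Over all tested genes 9.43% were higher and 5.58% lower (16.2% and 15.9% with the block). Shmt1, which turns serine into glycine in the cytosol, had 35.3, 39.7 and 34.3 CPM with DMSO and 54.5, 63.4 and 57.5 CPM with ZJU-37, a log2 fold change of 0.68 (adjusted p = 0.00320 in edgeR). Gldc, of the glycine cleavage system, rose by a log2 fold change of 0.72 (adjusted p = 0.00230), the largest of the list. Ahcy, which hydrolyses S-adenosylhomocysteine, and the folate enzymes Mthfd1l and Mthfd1 had log2 fold changes of 0.59, 0.57 and 0.41. The other amino acid enzymes had 6 of 12 tested genes higher and none lower (6 and 1 with the block), with 2, 3 and 3 called without DMSO replicate 2, DMSO replicate 3 and ZJU-37 replicate 3. Pck2, the mitochondrial PEP carboxykinase, had the largest log2 fold change (0.69, from 13.1, 16.2 and 17.8 CPM to 21.5, 27.1 and 27.4 CPM, adjusted p = 0.0242 in edgeR). Gpt2, which makes alanine, Oat, which degrades ornithine, and Bcat1, which acts on branched-chain amino acids, had log2 fold changes of 0.49, 0.39 and 0.29.

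Of the 20 cytosolic tRNA synthetases, 3 were called higher and none lower. That is 15.0%, and over all tested genes 15.0% were called in either direction and 9.43% as higher. With the block 9 were higher, beside 16.2% of all tested genes. Without DMSO replicate 2, DMSO replicate 3 or ZJU-37 replicate 3 the count was 0. Cars, Gars and Vars, the synthetases for cysteine, glycine and valine, had log2 fold changes of 0.34, 0.30 and 0.28. The median of the list was 0.15, with 17 of 20 above 0.

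Of 17 other known ATF4 targets, 14 were tested, 1 was higher and 2 were lower, with a median log2 fold change of -0.06. That is 21.4% called, beside 15.0% of all tested genes. With the block 2 were higher and 4 lower, beside 16.2% and 15.9% of all tested genes. Eif4ebp1, which restrains translation initiation, had 51.1, 63.0 and 58.3 CPM with DMSO and 75.4, 91.0 and 89.1 CPM with ZJU-37 (log2 fold change 0.57, adjusted p = 0.0140 in edgeR). Ddit4, which dampens mTORC1, went the other way. It had 162, 148 and 147 CPM with DMSO and 81.8, 77.1 and 74.4 CPM with ZJU-37, about the same drop in every pair (log2 fold change -0.97, standard error 0.07, adjusted p = 3.93e-04). Vegfa, an angiogenic factor, had a log2 fold change of -0.57 (adjusted p = 0.0111). Ddit4 and Vegfa are also targets of the hypoxia factors. Fgf21, Adm2 and Nupr1 were the 3 that failed the filter on low counts. Nupr1 had 2, 0 and 3 counts with DMSO and 2, 128 and 8 counts with ZJU-37, so that a single library held nearly all of its reads.

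Upstream of ATF4 and in the parallel ER branch, little passed the test at the level of messenger RNA. Phosphorylation of eIF2 and the activity of its kinases were not measured in these libraries. None of the 14 genes for eIF2 kinases, eIF2, its exchange factor eIF2B and the phosphatase subunits was called in edgeR (1 with the block, 0 with DESeq2 and with limma-voom), and 1 had an unadjusted p-value under 0.05. Their log2 fold changes ran from -0.09 to 0.17, the largest being that of Eif2s1, the eIF2 subunit that is phosphorylated (0.17, adjusted p = 0.117). None of the 20 ER chaperone and ATF6 or XBP1 genes was called either (5 with the block, 2 of them higher and 3 lower, 2 with DESeq2 and 0 with limma-voom), with a median of -0.04 and 5 under an unadjusted p-value of 0.05. Ern1, which encodes the ER sensor IRE1, had the largest log2 fold change, -0.33 (adjusted p = 0.0993 in edgeR). Among 11 other CREB and ATF factors, Creb5 was higher (log2 fold change 0.79, adjusted p = 0.0107) and Creb3l2 and Atf6b were lower (-0.93 and -0.34, adjusted p = 0.0145 and 0.0224, edgeR). This is 27.3% of the list, beside 15.0% of all tested genes. The list had 1 call without DMSO replicate 2 and 1 without ZJU-37 replicate 3. None of 6 relatives of the 10 genes (Trib1, Trib2, Chac2, Cebpa, Cebpd and Batf3) was called in edgeR or limma-voom and 1 was called with DESeq2. Trib2 had a log2 fold change of 0.28 (adjusted p = 0.0524 in edgeR) and was the 1 relative with an unadjusted p-value under 0.05, and Batf3 had the largest difference, -0.51 (adjusted p = 0.378).

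**Figure D5:**
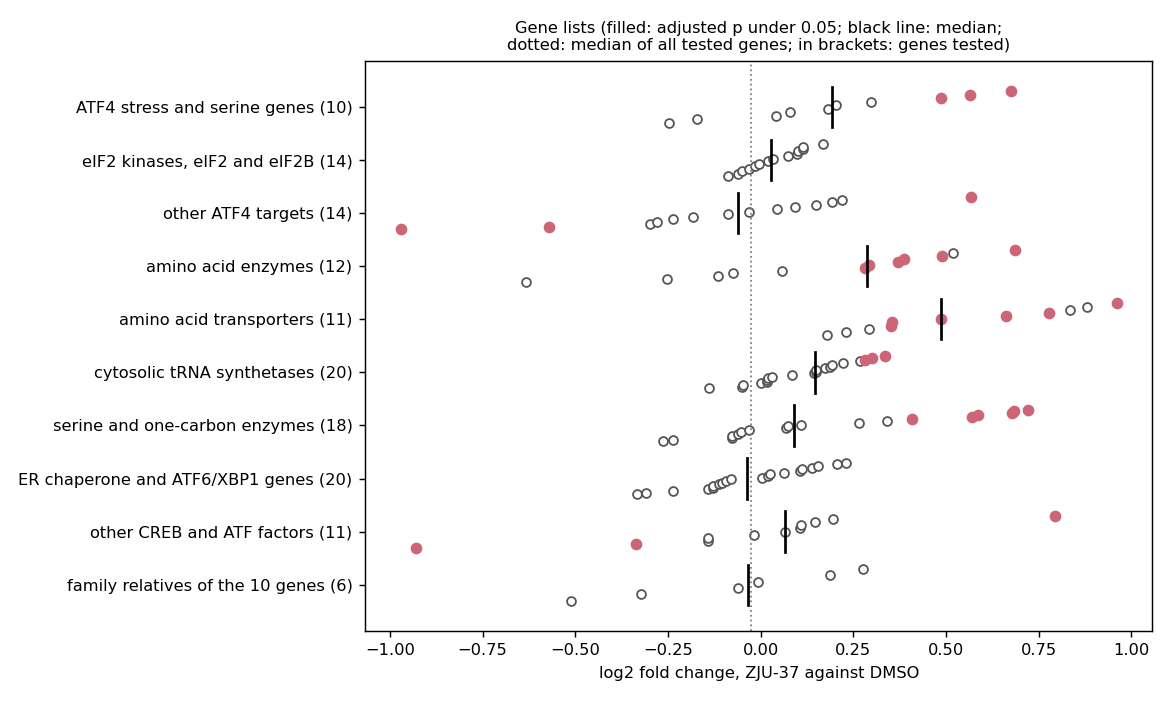
Log2 fold change, ZJU-37 against DMSO, of each tested gene of the 10 lists (points, filled where the adjusted p-value was under 0.05), with the median of each list in black and that of all tested genes dotted. The amino acid transporters all lie above 0, whereas the eIF2 and ER chaperone lists lie around 0 with no called gene.

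No match to the core lay in these windows of Atf4, Atf5, Ddit3, Asns, Psat1, Phgdh or Psph, which says only that these letters are absent from 300 bases at the RefSeq start. The window of Phgdh had a GC content of 38.8% before the start, the lowest of the 9, whose median was 58.0%. Of the lists, the core was present in 7 of 17 tRNA synthetases, 3 of 9 amino acid transporters, 3 of 10 amino acid enzymes, 4 of 15 other ATF4 targets, 2 of 14 eIF2 genes, and in 0 of 14 serine and folate-cycle enzymes and 0 of 15 ER chaperone genes. The called genes Slc38a1, Slc1a4 and Pck2 are shown as examples of the element in genes that rose, with the core in capitals.
Slc38a1, chr7:129681525-129681554, minus strand: gggggaaactcTGATGCAAccaaccagtcc
Slc1a4, chr14:98761779-98761808, minus strand: cgcctccagcgTTGCATCAtccagccagca
Pck2, chr15:32997603-32997632, plus strand: agccttcaaagTTACATCAgtatccttgca

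A match describes the letters and is no measurement of binding. Aars1, listed as Aars in the table, holds 2 matches and had a log2 fold change of 0.00 (adjusted p = 0.991 in edgeR), so that genes with the core were found both among those that rose and among those that were not called.

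The genes whose log2 CPM followed that of 4 of the 10 most closely over the 6 libraries, among 10300 candidates whose mean reached 10 CPM, were named by Pearson's r as a description. For Phgdh these were Tacc3, Cenpu and Lmo1 (r = 0.999 for each), with log2 fold changes of 1.20, 1.08 and 1.46, and here r mostly follows the split of the libraries by treatment. For Atf4 they were Tbc1d1, AABR07031521.1 and Utp15 (r from 0.986 to 0.993), for Trib3 Ascc3, Rras and Extl3, and for Psat1 Ss18, Nutf2 and Trim39, with log2 fold changes between 0.02 and 0.14.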

How the data were processed

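Poly(A) RNA of OPCs was sequenced in 3 DMSO and 3 ZJU-37 libraries, and groups and replicate numbers were taken from the labels. The submitters' processing notes name HISAT2 2.0.5, StringTie 1.3.3b and featureCounts 1.5.0, and the genome build is not given in the sources used here. The authors deposited 1 table with raw counts per gene and FPKM values, made by them from the counts and gene length, for each library. The table also holds the authors' own fold changes and p-values, which were not used. Gene length and position were taken as listed.

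Counts were filtered by edgeR's filterByExpr, scaled by TMM and tested with the robust quasi-likelihood test of edgeR 4.0.16 in R 4.3.3 (14670 genes, Benjamini-Hochberg adjustment over all of them, threshold 0.05). Intervals are at 95%. DESeq2 1.42.0, limma-voom (limma 3.58.1), other scalings and filters, a replicate block and leaving out each library were alternatives. Same-numbered libraries deviated from their group means together (r = 0.39, 0.31 and 0.33, other pairs -0.27 to -0.01). No label states a pairing, so it was inferred from these correlations, and the replicate block rests on it. Library totals were 13935865 to 24097927 counts. On simulated counts, edgeR recovered 68.1% of changes of 0.75 and 93.3% of changes of 1.5 in log2, with 3.57% of its calls false. For DESeq2 8.47% of calls were false. Smaller changes were not simulated. The 10 genes and all lists were chosen with earlier results of these data known. From each list up to 5 called genes by smallest p and the gene with the largest change were named, and for Atf4, Trib3, Psat1 and Phgdh the 3 genes of highest r. One gene that this rule names is not reported here. The ratio to Atf4, the motif search and the naming of Nupr1, Trib2, Aars, Sox9 and Aldoc were added after values had been seen. RefSeq promoters (GRCr8) were matched by symbol.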

Additional observations from a re-analysis of the deposited data

How the results depend on the processing

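The direction and call of Phgdh, Atf4, Atf3 and Trib3 held under all 13 alternatives, although the log2 fold changes ran from 0.050 to 0.18 for Atf4, from -0.45 to -0.030 for Atf3 and from 0.047 to 0.45 for Trib3 (0.65 to 0.72 for Phgdh). With the replicate block, Psat1 (0.18) and Psph (0.30) passed the threshold, 5 of the 10 genes and 4705 of all genes were called (50.4% of them higher, against 62.8% of 2201 without it), and the counts in the lists were 1 (eIF2), 6 (other ATF4 targets), 10 (transporters), 9 (tRNA synthetases), 5 (ER chaperones) and 2 (relatives). The block changed no other call of the 10 genes. Scaling by library size alone gave 0.33 for Psph, now past the threshold, 6 tRNA synthetases and 1 relative. DESeq2 called 2 ER chaperone genes and 1 relative, and 1 relative was called with no filter and with at least 10 counts in every library. When single libraries were left out, log2 fold changes ran from 0.49 to 0.69 for Atf5 and from 0.44 to 0.61 for Asns, with the calls lost as described, from -0.30 to 0.040 for Ddit3 (0.040 without ZJU-37 replicate 1) and from -0.059 to 0.23 for Chac1 (-0.0012 without DMSO replicate 1, -0.059 without ZJU-37 replicate 2). The calls then numbered 1 to 3 among the 10 genes, 1306 to 1927 over all genes, 4 to 7 amino acid transporters and 2 to 5 amino acid enzymes. They numbered 0 to 4 tRNA synthetases, 0 to 1 ER chaperone genes, 1 to 3 CREB and ATF factors and 0 to 2 relatives. Without ZJU-37 replicate 3, 72.3% of calls were higher. The cause of these shifts was not tested. With 1 library left out, the log2 difference in the ratio to Atf4 changed sign for Trib3 (0.091 with all libraries, -0.042 without DMSO replicate 1 and -0.046 without ZJU-37 replicate 3) and for Chac1 (-0.055, and 0.043 without ZJU-37 replicate 1), and kept its sign for the other 7 genes. With 3 libraries per group, intervals for Trib3 and Atf3 remain wide, and Fgf21, Adm2 and Nupr1 were too low to test.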
